A study of Mus musculus with 6 samples.

Results

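*Tnf* and 9 genes of its signalling pathway were followed in liver macrophages of mice with and without *Lpcat3* in their myeloid cells. The 10 genes were taken by name and not by a measured value, though with earlier results of these data known. They were the cytokine *Tnf*, its receptor *Tnfrsf1b* and the feedback inhibitors *Tnfaip3*, *Nfkbia* and *Nfkbiz*. To these came the 5 NF-kappaB subunits *Nfkb1*, *Nfkb2*, *Rel*, *Rela* and *Relb*. The genes are 10 of 49315 with deposited counts, and all 10 were among the 16134 genes with enough reads to be tested. RNA-seq libraries were made from F4/80-positive cells, captured with magnetic beads from collagenase-digested livers, of 3 WT and 3 Lpcat3 KOMac mice. The labels name a mouse as the donor of each library, mention no pooling of animals and give no batch.

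WT mice were littermates that carried the floxed alleles without the recombinase (Lpcat3 fl/fl LysM+/+), and Lpcat3 KOMac mice were Lpcat3 fl/fl LysM Cre/+, so that the floxed alleles are shared by both groups. All mice were C57BL/6N. They received a high-fat diet (60% fat) for 16 weeks from an age of 8 to 12 weeks, with no other treatment. LysM Cre is expressed from the lysozyme locus *Lyz2* in macrophages, monocytes and neutrophils and recombines only part of a macrophage population. *Lpcat3*, which encodes an enzyme that puts arachidonic acid into membrane phospholipids, was at 85.0, 66.2 and 61.2 CPM in WT and at 19.5, 33.3 and 19.4 CPM in Lpcat3 KOMac libraries 1 to 3 (CPM, the reads of a gene relative to all reads of the library, after TMM scaling). Its transcripts thus remained at 34.0% of the WT level, with every Lpcat3 KOMac library below every WT library.

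TNF is an inflammatory cytokine, and Kupffer cells, the macrophages that reside in the liver, are a main source of it there. When it binds its receptors, IkB kinases are activated, the inhibitor IkB-alpha is degraded and NF-kappaB dimers enter the nucleus. Several of the genes that NF-kappaB switches on encode its own inhibitors and subunits, so that the pathway limits itself.

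The 10 Kupffer cell markers were detected in every library, with a summed level of 36200 to 50460 CPM in WT and 28530 to 38790 CPM in Lpcat3 KOMac cells. All 10 had a negative log2 fold change (median -0.26), against 59.9% of all genes tested. *Clec4f*, *C1qa* and *C1qb* were lower in every Lpcat3 KOMac library than in every WT library, 3 of 10 against 5.2% of all genes. The 5 hepatocyte markers, all detected, summed to 18350 CPM in WT 1 against 1654 and 1661 CPM in WT 2 and 3. In Lpcat3 KOMac cells they summed to 11970 CPM in library 2 against 4245 and 4154 CPM in libraries 1 and 3. WT 1 and Lpcat3 KOMac 2 therefore stood apart from the other libraries, and results that rest on them are given with and without them. The 6 neutrophil markers summed to 3.36 to 5.18 CPM in WT and 6.48 to 8.04 CPM in Lpcat3 KOMac cells, with *Ly6g* at no more than 3 counts in any library. T and NK cell markers (5 genes) did not exceed 2.12 CPM in sum, and the 5 monocyte markers covered 94.3 to 159 CPM in WT and 88.1 to 159 CPM in Lpcat3 KOMac cells. The 6 sinusoidal endothelial markers summed to 849 to 948 CPM in WT and 926 to 1146 CPM in Lpcat3 KOMac cells. Their log2 fold changes ran from -0.24 (*Pecam1*) to 0.86 (*Lyve1*). The 5 stellate cell markers summed to 78.5 to 175 CPM and 129 to 235 CPM, and both sums overlapped between genotypes. In such bulk samples, fewer cells of a type and less RNA per cell cannot be told apart.

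Of the 10 transcripts, *Nfkbia* was the member whose genotypes did not overlap: its level in Lpcat3 KOMac cells was 67.0% of that in WT cells. *Tnf*, its receptor and the 5 NF-kappaB subunits differed between genotypes by less than the spread between mice. None of the 10 passed edgeR's quasi-likelihood test at an adjusted p under 0.05, against a background of 0.0% of the 16134 genes tested. The deleted gene *Lpcat3* was not called either (log2 fold change -1.56, unadjusted p 0.00119 in this test). The lack of a call therefore does not show that a gene was unchanged. Without adjustment, *Nfkbia* alone of the 10 had a p under 0.05. This makes 1 of 10 members against 2.64% of all genes (426 genes), and 1.57% of all genes were lower with such a p. Limma-voom called 0 members and 0 genes, and DESeq2 called 0 members and 15 genes (0.093% of all tested). Non-overlapping genotypes were found for 1 of 10 members against 7.49% of all genes, and no member was higher in every Lpcat3 KOMac library (2.29% of all genes were). The members' log2 fold changes (Lpcat3 KOMac against WT) had a median of -0.15, and 9 of 10 were negative. Over all genes the median was -0.04 and 59.9% were negative.

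**Figure D1:**
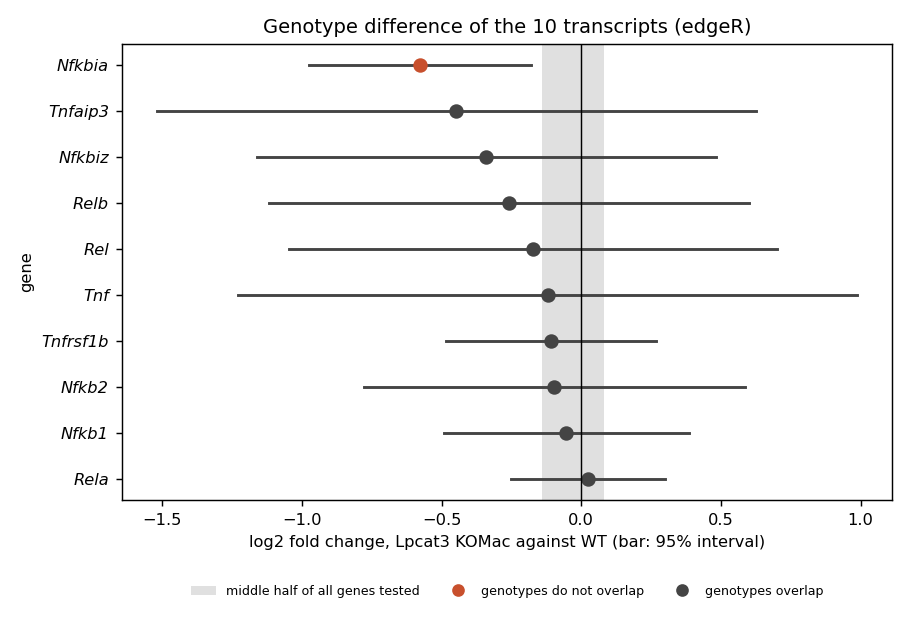
Log2 fold change of the 10 transcripts (x axis, Lpcat3 KOMac against WT, points) with its 95% interval from edgeR (bars), 1 gene per line, in order of the fold change. The grey band is the interquartile range of all genes tested, from -0.14 to 0.08. *Nfkbia* (orange, genotypes without overlap) has the only interval that leaves out 0, and *Tnf* and *Tnfaip3* have the widest intervals.

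*Tnf* (ENSMUSG00000024401, chr17:35199381-35202007 on the minus strand of GRCm38, the build of all positions here) was at 6.76, 21.2 and 19.7 CPM in WT 1 to 3. In Lpcat3 KOMac 1 to 3 it was at 17.2, 11.1 and 15.6 CPM. The lowest and the highest value were both from WT mice, and the Lpcat3 KOMac mice lay between them. The means were 15.9 ± 7.93 CPM in WT and 14.6 ± 3.17 CPM in Lpcat3 KOMac cells (SD, n = 3 each). The log2 fold change was -0.12, with a wide 95% interval of -1.23 to 0.99. These levels rest on 439 to 1061 counts per library, the fewest of the 10 genes but well above the floor of 3 counts.

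*Tnfrsf1b* (ENSMUSG00000028599, chr4:145213463-145246870, minus strand) encodes TNFR2, the TNF receptor of immune and endothelial cells. It was at 339, 450 and 390 CPM in WT 1 to 3 and at 360, 317 and 417 CPM in Lpcat3 KOMac 1 to 3. The genotypes overlapped, with means of 393 ± 55.8 and 365 ± 50.1 CPM (SD, n = 3 each). Its log2 fold change of -0.11 had a narrower interval than that of *Tnf*, from -0.48 to 0.27. *Tnfrsf1a*, which encodes the other TNF receptor and was not among the 10, was more even, with 253, 272 and 270 CPM in WT and 255, 252 and 254 CPM in Lpcat3 KOMac libraries 1 to 3 (log2 fold change -0.06).

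Among the subunits, *Rela* (ENSMUSG00000024927, chr19:5637483-5648130, plus strand), which encodes the p65 subunit with a transactivation domain, was the steadiest transcript. It was at 82.6, 98.1 and 96.1 CPM in WT 1 to 3 and at 94.3, 84.4 and 103 CPM in Lpcat3 KOMac 1 to 3. The genotypes overlapped, and the log2 fold change of 0.02 had an interval of -0.25 to 0.30. *Nfkb1* (ENSMUSG00000028163, chr3:135584655-135691547, minus strand) encodes p105, the precursor of the p50 subunit that pairs with p65. It was at 162, 219 and 194 CPM in WT 1 to 3 and at 213, 149 and 192 CPM in Lpcat3 KOMac 1 to 3. Again the genotypes overlapped, and the log2 fold change was -0.05 (95% interval -0.49 to 0.38).

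*Nfkb2* (ENSMUSG00000025225, chr19:46304737-46312090, plus strand) encodes p100, from which the p52 subunit of the non-canonical pathway is made. It was at 51.6, 86.3 and 72.1 CPM in WT 1 to 3 and at 85.4, 47.7 and 63.4 CPM in Lpcat3 KOMac 1 to 3, with a log2 fold change of -0.10 (95% interval -0.78 to 0.59). *Nfkb2* shares 4 exonic bases with *Psd* on the other strand, and no other member shares exonic bases with another annotated gene. *Relb* (ENSMUSG00000002983, chr7:19606217-19629438, minus strand), the partner of p52, was at 28.8, 56.6 and 45.7 CPM in WT 1 to 3 and at 48.7, 23.7 and 37.3 CPM in Lpcat3 KOMac 1 to 3. For *Relb* and *Nfkb2* alike, the highest library was WT 2 and the lowest was Lpcat3 KOMac 2. The log2 fold change of *Relb* was -0.26, with an interval from -1.12 to 0.60.

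*Rel* (ENSMUSG00000020275, chr11:23736847-23770970, minus strand), which encodes c-Rel, was at 33.2, 61.6 and 72.9 CPM in WT 1 to 3. In Lpcat3 KOMac 1 to 3 it was at 49.9, 34.8 and 64.2 CPM, and the genotypes overlapped over almost their whole range. Its log2 fold change was -0.17 (95% interval -1.05 to 0.70). Per kilobase of exon, *Rela* made up 34.9% to 45.3% of the 5 subunit transcripts in each library, *Nfkb2* 21.1% to 26.6% and *Nfkb1* 17.0% to 18.8%. *Relb* made up 8.89% to 14.1% and *Rel* 6.24% to 10.3%, and in all 6 libraries *Rela* had the largest share and *Rel* the smallest. These shares are of transcripts per length and not of protein.

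Of the 3 inhibitors, *Nfkbia* (ENSMUSG00000021025, chr12:55489411-55492647, minus strand) encodes IkB-alpha, which holds NF-kappaB in the cytoplasm and is resynthesised after each activation. It was at 239, 290 and 264 CPM in WT 1 to 3 and at 208, 143 and 181 CPM in Lpcat3 KOMac 1 to 3. Every Lpcat3 KOMac mouse was below every WT mouse, with the nearest pair 208 against 239 CPM. The means were 264 ± 25.7 and 177 ± 32.7 CPM (SD, n = 3 each). This corresponds to a log2 fold change of -0.58 (SE 0.16). On the linear scale the 95% interval ran from 50.9% to 88.2% of the WT level. The unadjusted p of edgeR's quasi-likelihood test was 0.0121 and the adjusted p was 1. An exact two-sided permutation test gave p = 0.1, the smallest that 3 against 3 mice allow. A lower level in all 3 Lpcat3 KOMac libraries was found for 5.2% of all genes (839 genes, against 369 that were higher). This background depends on the scaling: with total counts alone 232 genes were lower and 795 higher, and *Nfkbia* was still among those lower.

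*Nfkbia* kept its direction and its unadjusted p under 0.05 in all 17 alternative fits, with log2 fold changes between -0.67 and -0.43 and unadjusted p between 0.00546 and 0.0443. The adjusted p of these fits lay between 0.172 and 1. All of the fits used the same mice or a part of them. Over all genes, the number with an unadjusted p under 0.05 changed with the fit. It ran from 138 of 16134 with the replicate block to 2028 of 16487 without WT 1, against 426 of 16134 in the main fit. Without WT 1 and Lpcat3 KOMac 2, the log2 fold change of *Nfkbia* was -0.51. With the hepatocyte markers as a covariate it was -0.53. The ratio of *Nfkbia* reads to *Nfkb1* reads, which needs no scaling between libraries, was 1.48, 1.32 and 1.36 in WT and 0.973, 0.960 and 0.941 in Lpcat3 KOMac libraries 1 to 3. It was lower in every Lpcat3 KOMac library with 5 of the 9 other members as the denominator (*Tnf*, *Tnfrsf1b*, *Nfkb1*, *Nfkb2* and *Rela*), against 47.6% of 16087 genes used in the same way, a share near that of the members. Beside this difference stand those of the Kupffer cell markers given above and of the neutrophil sum. The 4 cholangiocyte markers also summed higher in Lpcat3 KOMac cells (18.7 to 44.8 CPM against 2.80 to 15.1 CPM, nearly all from *Spp1*, which macrophages express too). The part of these cells in the *Nfkbia* level was not tested.

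*Tnfaip3* (ENSMUSG00000019850, chr10:19000910-19015657, minus strand) encodes A20, a ubiquitin-editing enzyme that ends signalling from the TNF receptor complex. It was at 45.5, 118 and 85.5 CPM in WT 1 to 3 and at 76.0, 36.1 and 70.3 CPM in Lpcat3 KOMac 1 to 3. The genotypes overlapped because WT 1 lay under 2 of the Lpcat3 KOMac libraries. The log2 fold change was -0.45, with an interval from -1.52 to 0.62. *Nfkbiz* (ENSMUSG00000035356, chr16:55811375-55838899, minus strand), which encodes the nuclear protein IkB-zeta needed for a subset of NF-kappaB targets, was at 40.9, 96.9 and 86.4 CPM in WT 1 to 3. In Lpcat3 KOMac 1 to 3 it was at 62.9, 49.5 and 64.8 CPM, between WT 1 and the other WT libraries. Its log2 fold change was -0.34 (95% interval -1.16 to 0.48).

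**Figure D2:**
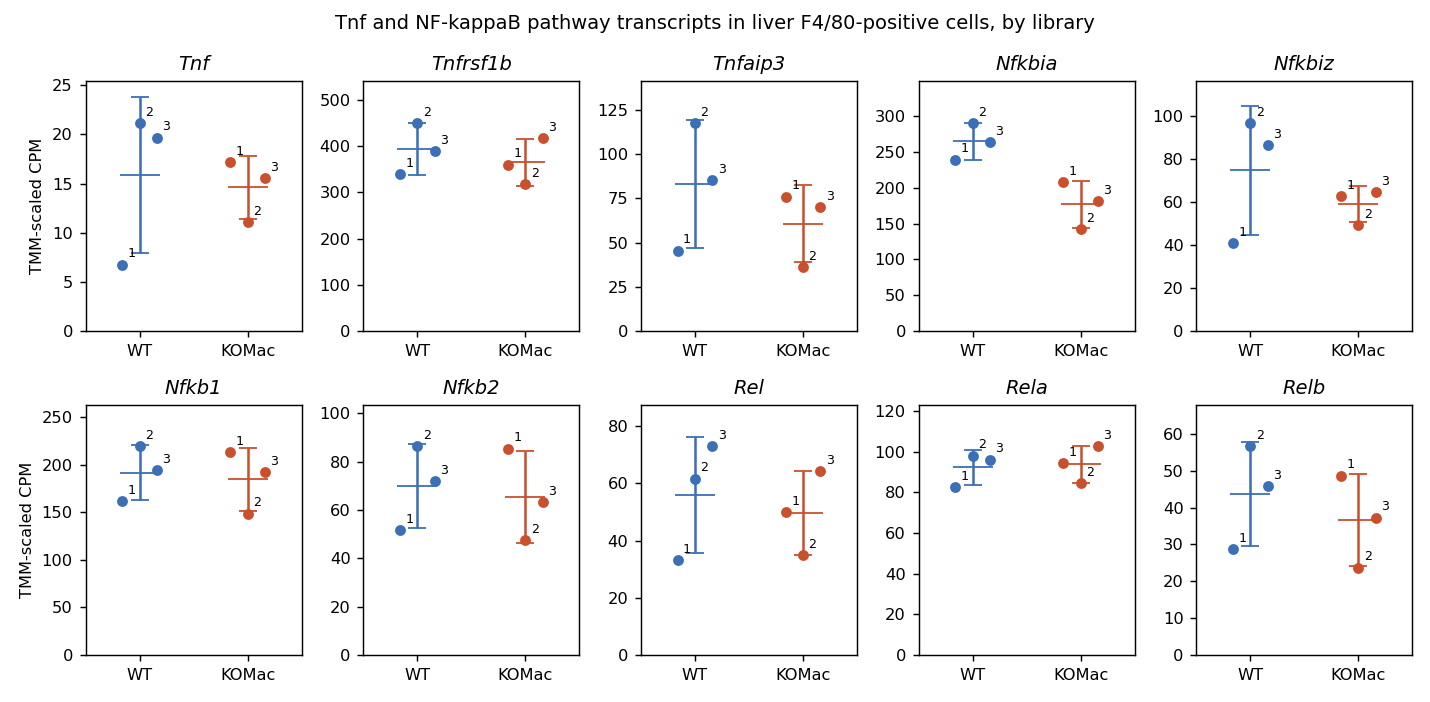
TMM-scaled CPM (y axes, each from 0) of the 10 transcripts in the 3 WT (blue) and 3 Lpcat3 KOMac (orange) libraries, with the replicate number beside each point and the mean ± SD as bars. For every gene, the lowest blue point is WT 1 and the lowest orange point is Lpcat3 KOMac 2, and only for *Nfkbia* do all orange points lie under all blue points.

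In each genotype the same library was lowest for every member. WT 1 was the lowest WT library and Lpcat3 KOMac 2 the lowest Lpcat3 KOMac library for 10 of 10 members, a pattern noticed after their values were seen. The same held for 27.8% of all genes tested and for 38 of 77 (49.4%) other pathway genes. The size of the dip differed between members. Relative to the mean of WT 2 and 3, WT 1 held 0.331 of *Tnf*, 0.446 of *Nfkbiz*, 0.448 of *Tnfaip3* and 0.494 of *Rel*. It held 0.863 of *Nfkbia* and 0.851 of *Rela*. Lpcat3 KOMac 2, relative to the mean of Lpcat3 KOMac 1 and 3, held 0.494 of *Tnfaip3*, 0.552 of *Relb* and 0.610 of *Rel*, and 0.858 of *Rela*.

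These 2 libraries also had the highest hepatocyte marker sums of their genotypes. The part of hepatocyte RNA in the members' levels was not tested. The Kupffer cell sum was also lowest in them, by little in WT (36200 CPM in WT 1 against 37280 CPM in WT 3), and 4 of the 10 Kupffer cell markers were lowest in both libraries. Single markers differed more than the sum. Relative to the mean of Lpcat3 KOMac 1 and 3, Lpcat3 KOMac 2 held 0.0706 of *Marco*, 0.219 of *Timd4* and 0.333 of *Cd163*. It held between 0.822 (*Clec4f*) and 0.979 (*C1qb*) of the other markers. In WT, *Marco*, *Timd4* and *Cd163* were lowest in WT 3. Of 14 immediate early and heat shock transcripts, which rise when tissue is dissociated, 9 were lowest in WT 1 and Lpcat3 KOMac 2 in the same way as the members. Among them were *Fos*, *Jun*, *Egr1* and *Btg2*. The sum of the 14 went the other way in WT 1 (3946 CPM against 2776 and 3255 CPM), since most of it came from the heat shock transcript *Hspa8* (2468 CPM in WT 1 against 1493 and 1459 CPM). In Lpcat3 KOMac libraries the sum was 2564 to 3133 CPM.

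**Figure D3:**
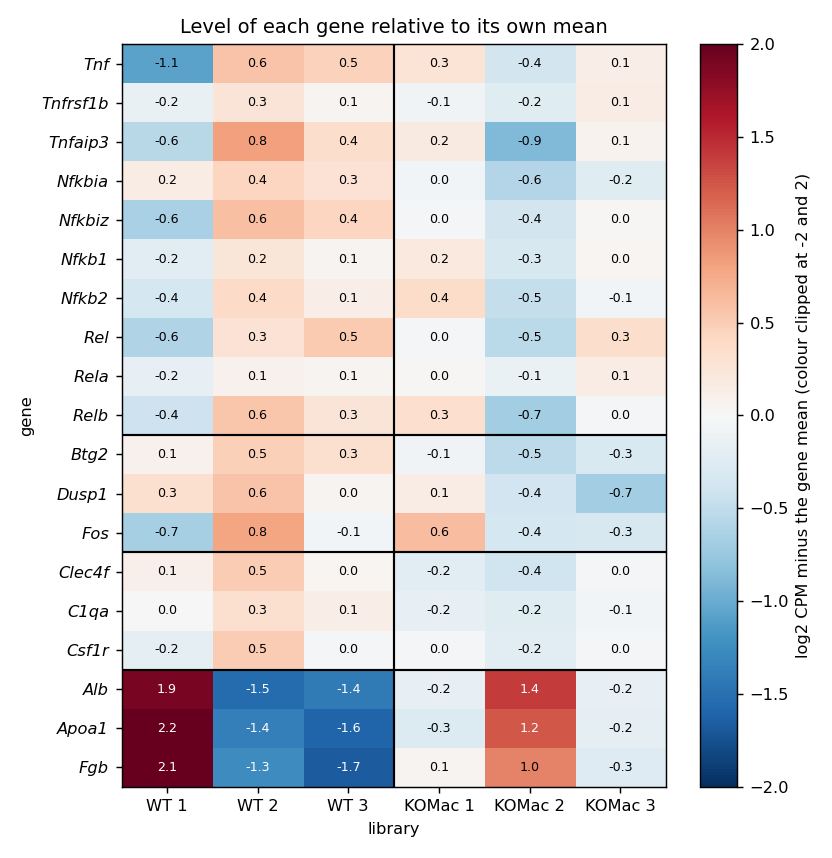
Log2 CPM of each gene minus its own mean over the 6 libraries (colour and numbers), for the 10 members (top), 3 immediate early genes, 3 Kupffer cell markers and 3 hepatocyte markers (bottom). Members are blue (below their mean) in WT 1 and Lpcat3 KOMac 2, except *Nfkbia* in WT 1, and these libraries are red for *Alb*, *Apoa1* and *Fgb*.

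Without both libraries, 4 of 10 members were lower in both remaining Lpcat3 KOMac libraries than in both remaining WT libraries, against 21.1% of all genes (3404 of 16126), since 2 against 2 libraries separate far more easily than 3 against 3. Besides *Nfkbia*, these members were *Tnf* (log2 fold change -0.32), *Tnfaip3* (-0.47) and *Nfkbiz* (-0.52). Their unadjusted p in edgeR, 2 mice against 2, lay between 0.00266 and 0.0445, and their adjusted p was at least 0.128. In this subset 1767 of 16126 genes had an unadjusted p under 0.05 and 0 were called. Leaving out WT 1 alone gave the same 4 members, against 15.3% of all genes (2517 genes). The 2 libraries were the lowest of their genotypes for 10 of 10 members but for 27.8% of all genes. Leaving out WT 1 therefore raised the lowest WT level of every member. The shares over all genes are thus no like-for-like background, and nothing about the members is drawn from these counts. Leaving out Lpcat3 KOMac 2 alone gave *Nfkbia* only and a positive log2 fold change of *Tnf* (0.07). With the hepatocyte markers as a covariate, *Tnf* had a log2 fold change of 0.30 (unadjusted p 0.0387, adjusted p 0.519 in edgeR). In that fit 1497 of 16134 genes had an unadjusted p under 0.05. The direction of the *Tnf* difference therefore depended on which libraries entered the fit and on the covariate.

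Between mice of a genotype, several members were more variable than the typical gene when all libraries were used. The pooled within-genotype SD of log2 CPM had a median of 0.45 over the 10 members and 0.27 over all genes tested. *Tnf* (0.69), *Tnfaip3* (0.65), *Rel* (0.53), *Relb* (0.51) and *Nfkbiz* (0.50) were the most variable. *Nfkb2* (0.40) lay between, and *Nfkb1* (0.25), *Nfkbia* (0.22), *Tnfrsf1b* (0.20) and *Rela* (0.14) were below the median of all genes. Without WT 1 and Lpcat3 KOMac 2 the excess was gone: the median was 0.14 over the members and 0.17 over the genes tested, with *Tnf* at 0.09 and *Tnfaip3* at 0.24. These 2 libraries were the lowest of their genotypes for all 10 members but for 27.8% of all genes. Their removal therefore favoured a lower spread of the members. With all libraries, *Nfkbia* had the largest genotype difference of the 10. Without these 2 libraries *Nfkbiz* was level with it (-0.52 against -0.51), and without WT 1 alone *Tnfaip3* exceeded it (-0.74 against -0.64).

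Per kilobase of exon and averaged over the 6 libraries, *Nfkbia* was the most abundant of the 10 transcripts (140.0 CPM per kb), followed by *Tnfrsf1b* (99.2) and *Rela* (34.3). *Nfkb2* (20.6), *Nfkb1* (15.6), *Nfkbiz* (13.3), *Relb* (10.3), *Tnfaip3* (9.95), *Tnf* (9.29) and *Rel* (7.07) followed in that order. Only *Tnfrsf1b* against *Rela* and *Rela* against *Nfkb2* were separated by a gap that no library crossed. All other neighbours in this order overlapped in their ranges over the libraries. Within each of the 6 libraries, *Nfkbia* was still above *Tnfrsf1b*, *Nfkb2* above *Nfkb1* and *Nfkbiz* above *Relb*. Per length, the mRNA of the cytokine overlapped in level with that of its inhibitor A20 and lay below that of its receptor in all libraries.

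Profiles across the libraries were compared by the root mean square difference of log2 CPM after centring each gene on its own mean, with 6 libraries that share the hepatocyte pattern given above. The member nearest to *Tnf* was *Nfkbiz* (0.216, against a SD of 0.62 for *Tnf* itself), and the farthest was *Nfkbia* (0.554). *Nfkb2* and *Relb* were nearest to each other (0.129), *Relb* was nearest to *Tnfaip3* (0.169) and *Tnfrsf1b* to *Rela* (0.0932). Among genes with a mean of at least 5 CPM, the 5 with the profile most like that of *Tnf* were *Zmynd15* (0.0861), *Ier3* (0.0984), *Gm8113* (0.117), *Cracr2a* (0.137) and *Ptger4* (0.141). All of them overlapped between genotypes, which the choice by likeness to *Tnf* largely fixes.

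Promoter sequences of 7 of the 10 members (10 transcription starts) were found in RefSeq (GRCm38.p6), and those of *Nfkbiz*, *Nfkb1* and *Relb* were not used here. The kappaB consensus motif, a 10-base site of NF-kappaB, was searched on both strands in the 250 bases before each start. It was found in 6 of the 10 windows and in 4 members (*Nfkbia*, *Rel*, *Nfkb2* and *Tnfaip3*), and in 3.9% of all 32851 windows of the same length (1281 windows). Shown are the whole *Nfkbia* window and the stretches around the matches of *Rel* and of the first of the 3 *Nfkb2* windows, as examples of an inhibitor and of subunits whose promoters carry the motif. Capitals mark the motif matches, which are letters in a window and not measured binding, and overlapping matches on the 2 strands run together.
Nfkbia, chr12:55492648-55492897, minus strand: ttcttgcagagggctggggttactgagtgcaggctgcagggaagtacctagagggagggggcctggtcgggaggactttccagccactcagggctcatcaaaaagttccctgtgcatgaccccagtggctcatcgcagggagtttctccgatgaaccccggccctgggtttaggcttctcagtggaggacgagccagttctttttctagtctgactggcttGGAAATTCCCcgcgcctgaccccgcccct
Rel, chr11:23771031-23771081, minus strand: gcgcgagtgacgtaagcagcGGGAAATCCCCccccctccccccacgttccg
Nfkb2, chr19:46304678-46304736, plus strand: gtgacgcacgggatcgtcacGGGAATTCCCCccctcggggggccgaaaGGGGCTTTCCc
The *Nfkbia* match lay 29 to 20 bases before the start, that of *Rel* 92 to 82 bases before it, and those of *Nfkb2* between 39 and 2 bases before the first of its starts. Members with a match included the gene with non-overlapping genotypes (*Nfkbia*) and genes without (*Rel*, *Nfkb2*), and nothing is drawn from windows without a match.

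Around the 10 genes, 80 further genes of the pathway were read in 8 lists, of which 77 had enough reads (*Lta*, *Tnfsf11* and *Cd40lg* did not exceed 4 counts in any library). None of the 77 was called by edgeR, DESeq2 or limma-voom, and 0 had an unadjusted p under 0.05 in edgeR, against 2.64% of all genes. Of the 77, 46 had a negative and 31 a positive log2 fold change, with a median of -0.05. *Traf2*, an adaptor of the TNF receptors, and *Nfkbib*, which encodes IkB-beta, were lower in every Lpcat3 KOMac library, 2 of 77 against 5.2% of all genes. *Traf2* was at 24.1, 26.2 and 26.8 CPM in WT and at 23.5, 21.6 and 21.8 CPM in Lpcat3 KOMac libraries 1 to 3 (log2 fold change -0.20). *Nfkbib* had a log2 fold change of -0.16 and shares 42 exonic bases with *Sirt2* on the other strand.

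The genes between ligand and kinase had log2 fold changes of both signs, none with an unadjusted p under 0.05 in edgeR. The list medians were 0.02 for the ligands, -0.06 for the receptors, -0.12 for shedding and mRNA control, -0.06 for receptor-proximal signalling and -0.05 for the IkB kinases. Single genes ran from -0.41 (*Birc3*) to 0.72 (*Timp3*, an inhibitor of TNF shedding, 95% interval -0.42 to 1.86). *Adam17*, the protease that sheds TNF from the cell surface, had a log2 fold change of -0.12 and shares 97 exonic bases with *Iah1*. *Zfp36*, which encodes tristetraprolin and speeds the decay of *Tnf* mRNA, was at 211, 344 and 308 CPM in WT and at 292, 217 and 260 CPM in Lpcat3 KOMac libraries 1 to 3 (-0.16). The kinase subunit genes *Chuk* (0.02), *Ikbkb* (-0.07) and *Ikbkg* (-0.05), the non-canonical kinase gene *Map3k14* (-0.02) and the scaffold kinase gene *Ripk1* (-0.04) were all within 0.1 of 0 on the log2 scale. *Ikbkg* shares 418 exonic bases with *G6pdx* and *Ripk1* 241 with *Serpinb6a*, both on the other strand and both far more abundant, so that their levels are uncertain if reads were counted without strand. *Traf3*, a brake on the non-canonical pathway, had a log2 fold change of -0.14, and *Birc3*, which encodes cIAP2 and is itself an NF-kappaB target, of -0.41 (95% interval -0.93 to 0.11).

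Of the other IkB genes, *Nfkbie* (-0.26) and *Nfkbid* (-0.21) had negative log2 fold changes and *Bcl3* (0.01) did not. *Tnip1*, whose product works with A20, had a log2 fold change of 0.16, and that of *Cyld*, a deubiquitinase of the same feedback, was -0.03. The 24 other NF-kappaB targets had a median log2 fold change of 0.06, with 10 negative and 14 positive. The ends of that list, picked after their values were seen, were *Il6* (-1.38, unadjusted p 0.0597 in edgeR) and *Nos2* (0.50). *Il6* was at 1.69, 4.25 and 3.50 CPM in WT and at 2.13, 0.617 and 0.850 CPM in Lpcat3 KOMac libraries 1 to 3, with WT 1 within the range of the other genotype. Of the 7 chemokine genes of this list, named as a group after their values were seen, *Ccl2* (0.06), *Ccl3* (0.09), *Ccl4* (0.14) and *Ccl5* (0.37) had positive log2 fold changes. Those of *Cxcl1* (-0.18), *Cxcl2* (-0.09) and *Cxcl10* (-0.28) were negative, and all 7 overlapped between genotypes. *Il1b* had a log2 fold change of -0.63 (95% interval -1.91 to 0.64).

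**Figure D4:**
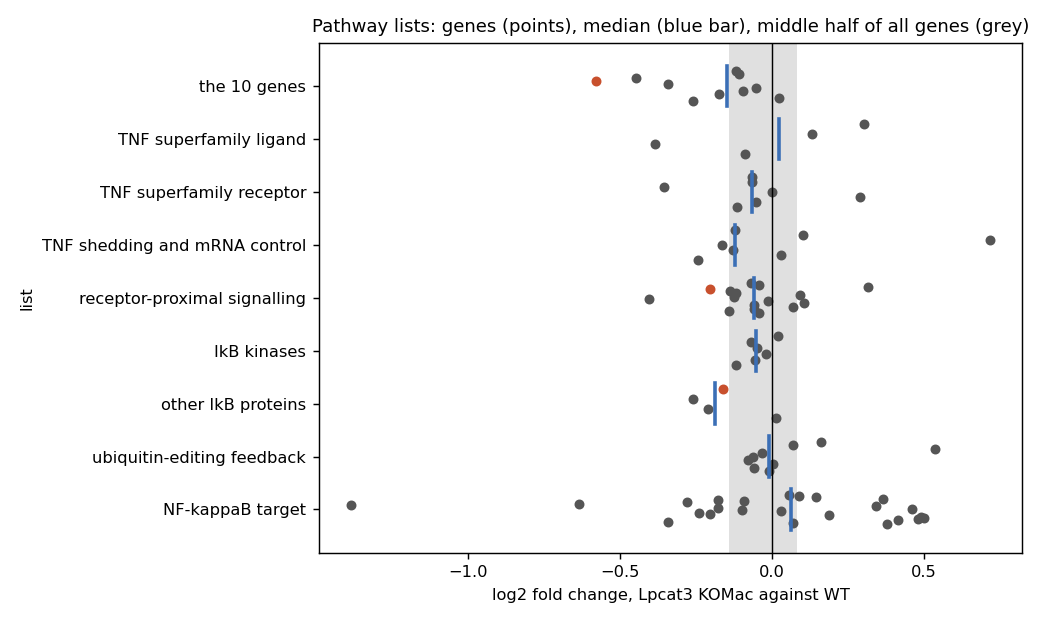
Log2 fold change (x axis, Lpcat3 KOMac against WT) of the 10 genes and of the 77 tested genes of the 8 pathway lists, 1 point per gene, with the list median as a blue bar and the interquartile range of all genes in grey. Orange points are genes whose genotypes do not overlap (*Nfkbia*, *Traf2* and *Nfkbib*), and the medians run from -0.19 (other IkB proteins) to 0.06 (NF-kappaB targets).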

How the data were processed

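Poly-A RNA libraries from F4/80-positive liver cells of 3 WT and 3 Lpcat3 KOMac mice had been sequenced. The authors deposited raw read counts per gene, without normalization. The submitters' processing notes name Trimmomatic 0.36, STAR 2.5.2b, featureCounts, Subread 1.5.2 and the build GRCm38, without their roles. The strand setting and the treatment of multimapping reads are not given in the sources used here. Total counts were 44954224 to 71392812 per library, so the spread between mice outweighs counting error for the genes described. No library was a copy of another (chi-square per degree of freedom of at least 26.6 for every pair). P-values set the genotype difference against the spread between these libraries. Of 49315 gene identifiers, 49056 were found in GENCODE M21.

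Genotypes were tested in edgeR 4.0.16, run under R 4.3.3 (TMM, filterByExpr with a minimum count of 10, robust quasi-likelihood test, genotype as the only term). Adjusted p-values (Benjamini-Hochberg) are over all 16134 genes tested, with a threshold of 0.05. The SE of a fold change was taken from the F statistic of its test. CPM per kb used the deposited exonic length. Alternatives were other scalings, filters and tools (DESeq2 1.42.0, limma 3.58.1 voom), a replicate block, a hepatocyte covariate, a length offset and leaving out each library. Leaving out WT 1 and Lpcat3 KOMac 2 together was chosen after seeing the data. Scripts were tested on simulated data. The 10 genes, the lists and the tests were chosen with earlier results of these data known. Named by rule were all 10 genes, 17 pathway genes of a hand-written list, other pathway list genes with an unadjusted p under 0.05 (there were 0), the 5 genes with a profile most like *Tnf*, and markers whose values stand beside a result. *Il6*, *Il1b*, *Nos2*, *Timp3* and the chemokine genes were named after their values were seen.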

Additional observations from a re-analysis of the deposited data

How the results depend on the processing

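In all 17 alternatives 0 of the 10 genes and 0 of the 77 pathway genes were called, and *Tnfaip3*, *Nfkbia*, *Nfkbiz* and *Relb* kept a negative log2 fold change. Over all genes, DESeq2 called 15 and every other alternative 0. Genotypes of 4 of the 10 genes did not overlap without WT replicate 1, and of 4 without WT replicate 1 and Lpcat3 KOMac replicate 2, against 1 with all libraries. Over all genes the share that was lower without overlap also rose, from 5.2% to 15.3% and 21.1%. Leaving out any other single library gave shares of 4.95% to 9.21%. WT 1 was the lowest WT library for all 10 members, so these shares are no like-for-like background for them. The number of members without overlap lay between 1 and 4 when single libraries were left out. With total counts alone, log2 fold changes turned positive for *Nfkb1* (0.037), *Tnfrsf1a* (0.028), *Ripk1* (0.053), *Ikbkb* (0.018), *Ikbkg* (0.052), *Map3k14* (0.069) and *Cyld* (0.057), while the median of all genes moved from -0.04 to 0.06. With the hepatocyte covariate they changed sign for *Tnf* (0.30), *Nfkb1* (0.025), *Nfkb2* (0.040), *Rel* (0.071), *Chuk* (-0.055), *Ikbkb* (0.012), *Map3k14* (0.071) and *Cyld* (0.026). Limma-voom gave 0.11 for *Tnf* and 0.0018 for *Map3k14*, and the fit without WT 1 and Lpcat3 KOMac 2 gave 0.040 for *Ikbkg* and -0.14 for *Bcl3*. Leaving out single libraries, the range crossed 0 for *Tnf* (-0.48 to 0.15), *Tnfrsf1b* (-0.20 to 0.0019), *Nfkb1* (-0.16 to 0.10), *Nfkb2* (-0.29 to 0.11), *Rel* (-0.44 to 0.064) and *Rela* (-0.050 to 0.11). It did so too for *Adam17* (-0.24 to 0.042), *Ripk1* (-0.10 to 0.040), *Traf3* (-0.29 to 0.10), *Chuk* (-0.10 to 0.22), *Ikbkb* (-0.19 to 0.014), *Ikbkg* (-0.10 to 0.055), *Map3k14* (-0.15 to 0.10), *Nfkbie* (-0.53 to 0.059), *Bcl3* (-0.14 to 0.15) and *Cyld* (-0.12 to 0.030). None of these differences had passed the test. The replicate numbers were not shown to pair the mice: same-numbered libraries had correlations of -0.60 to 0.36 in their deviations from the genotype means. With the replicate block, *Tnf* had a log2 fold change of 0.0048 and *Nfkbia* of -0.59 (unadjusted p 0.0443), and 138 genes had an unadjusted p under 0.05 against 426. With 3 mice per genotype, the intervals of *Tnf*, *Tnfaip3*, *Nfkbiz*, *Rel* and *Relb* reach beyond -1 on the log2 scale.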

Other observations

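The 5 genes with the profile most like that of *Nfkbia*, looked up after its values were seen, were *Btg2* (root mean square log2 difference 0.0470), *Fgfr1* (0.0710), *Cebpd* (0.0835), *Cd14* (0.0843) and *Klf2* (0.0910). All 5 were lower in every Lpcat3 KOMac library than in every WT library, which the choice by likeness to *Nfkbia* largely fixes. *Btg2*, an immediate early gene, was at 81.2, 106 and 95.1 CPM in WT 1 to 3 and at 72.5, 52.8 and 61.9 CPM in Lpcat3 KOMac 1 to 3 (log2 fold change -0.59). *Cd14*, the co-receptor for lipopolysaccharide, was at 170, 230 and 203 CPM in WT 1 to 3 and at 150, 108 and 153 CPM in Lpcat3 KOMac 1 to 3 (-0.55). *Klf2*, a transcription factor that restrains inflammatory genes in myeloid cells, was at 138, 186 and 160 CPM in WT 1 to 3 and at 126, 75.4 and 114 CPM in Lpcat3 KOMac 1 to 3 (-0.62). The adjusted p of all 5 in edgeR was 1. Of the 14 immediate early and heat shock transcripts, *Btg2* was the 1 whose genotypes did not overlap, against 7.49% of all genes. Log2 fold changes were negative for 10 of the 14 and positive for 4. *Dusp1* (-0.60), *Fos* (-0.09) and *Atf3* (0.58, unadjusted p 0.0448 in edgeR) overlapped between genotypes.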
